A study of Mus musculus with 4 samples.

Results

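Heat shock chaperones are proteins that help other proteins fold, keep them from clumping and refold them after stress. The 10 genes described here were chosen by name, as the best known genes of the cytosolic Hsp70 and Hsp90 systems, the mitochondrial chaperonin and the small heat shock proteins. Each of the 10 names matched 1 feature among the 34315 of the deposited table. They are Hspa1a and Hspa1b, the stress-induced Hsp70 genes, Hspa8, the constitutive Hsp70, Hsph1, an Hsp110 that recharges Hsp70, Dnajb1, an Hsp40 that feeds clients to Hsp70, Hsp90aa1 and Hsp90ab1, the cytosolic Hsp90 genes, Hspd1 and Hspe1, the mitochondrial chaperonin and its lid, and Hspb1, a small heat shock protein.

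The samples were 4 wild-type libraries of polyA-selected RNA from C57BL/6 mouse bone marrow haematopoietic stem cells, sorted as side population cells with the KSL-CD150+ phenotype. All 4 are labelled as technical replicates of biological replicate 1, whereas the series' design text speaks of duplicates, and the sources used here do not settle which holds. Differences between libraries, and the authors' p-values, may therefore measure technical spread, spread between mice or both. The second arm, labelled Dnmt3a-KO, stands for stem cells sorted in the same way that lack the DNA methyltransferase Dnmt3a, and it enters only through the authors' deposited mean counts, log2 fold changes and adjusted p-values. The sources used here do not say which part of Dnmt3a was deleted, by which Cre, at what age or in how many mice.

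In unstressed cells heat shock factor 1, the main transcription factor of the response, is held inactive by chaperones. When unfolded proteins draw the chaperones away it forms trimers and binds heat shock elements, inverted repeats of GAA and TTC spaced by any pair of bases, in front of the inducible chaperone genes. Hspa8 and Hsp90ab1 are made in nearly all cells at all times, whereas Hspa1a and Hspa1b are nearly silent until stress.

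Library totals ran from 40709659 to 47408552 counts. Libraries 1 and 2 differed from each other by little more than counting noise, as did libraries 3 and 4, with a median chi-square per feature of 0.769 and 0.675 where counting noise gives 0.455. Across the pairs the median was at least 14.7. Values are therefore given for each library, and each pair counts as 1 sample. The pairs are not labelled groups, so no test was run between them. All 12 stem cell markers, such as Kit, Slamf1, Procr and Hlf, had reads, and together they held 0.439% to 0.503% of the counts of a library. Having reads does not set this list apart: of the listed markers of other cell types, only Cma1 and Tpsb2 had none in wild type. The mean normalised count of Dnmt3a was 8399 over libraries 1 and 2 and 5304 over libraries 3 and 4. The knockout mean was 8424, so the whole-gene count goes against the label or lies outside the deleted part, and which of these holds cannot be told apart. The arm is therefore named by its label throughout.

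The promoters are shown first because heat shock elements, where present, lie there. RefSeq windows in build GRCm38.p6, from 250 bases before to 50 after each annotated start, were at hand for 7 of the 10 genes, all but Hspa8, Hsp90aa1 and Hsp90ab1. An element of 2 units (GAANNTTC or TTCNNGAA) and one of 3 units, the same with a further inverted unit at the same spacing, were searched on both strands. The 2-unit matches include those inside a 3-unit match. Below, capitals mark every matched element and the sequences run 5′ to 3′ on the gene's strand. Hspa1a and Hspa1b are printed as the 150 bases before the start, to show that they are nearly one sequence, and Hspb1 likewise, to show its pair of elements. Hspe1 and Hsph1 are printed as the 30 bases around an element.
Hspa1a, chr17:34972157-34972306, minus strand: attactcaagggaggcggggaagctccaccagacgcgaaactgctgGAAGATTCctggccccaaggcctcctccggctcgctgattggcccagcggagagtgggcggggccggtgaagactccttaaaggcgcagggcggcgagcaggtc
Hspa1b, chr17:34959239-34959388, minus strand: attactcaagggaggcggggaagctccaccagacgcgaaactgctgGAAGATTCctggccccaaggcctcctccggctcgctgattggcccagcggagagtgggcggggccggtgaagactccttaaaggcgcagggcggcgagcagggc
Hspb1, chr5:135887769-135887918, plus strand: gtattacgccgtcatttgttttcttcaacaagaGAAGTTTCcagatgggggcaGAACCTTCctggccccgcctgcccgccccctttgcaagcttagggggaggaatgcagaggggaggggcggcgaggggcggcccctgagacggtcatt
Hspe1, chr1:55088053-55088082, plus strand: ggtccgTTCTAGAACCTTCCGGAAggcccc
Hsph1, chr5:149636352-149636381, minus strand: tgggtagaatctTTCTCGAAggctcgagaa

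An element of 3 units was found in the windows of 3 of the 7 genes, Hspd1, Hspe1 and Hsph1, where 0.662% of the 27025 genes in the RefSeq table hold one. At least 1 element of 2 units was found for 6 of the 7 genes, against 17% of all genes. Dnajb1 had no match in either of its 2 windows. The element of Hspe1 is also that of Hspd1, read from the other side: the genes lie head to head on chromosome 1, with 215 bases between them in the authors' mm9 coordinates. It consists of 2 overlapping matches of 3 units at positions -89 to -72 from the Hspe1 start. From the second annotated start of Hspd1 it lies at -144 to -127, and the window of the first start had no match. In the RefSeq windows this first start lies past the Hspe1 start, so the mm9 gap does not hold for it. In Hsph1 the 3-unit match lies 36 to 48 bases after the first start, within the transcript, and a 2-unit match lies at -33 to -26. Hspa1a and Hspa1b were identical at 149 of the 150 bases before their starts and at 247 of 250, and both have their match at -104 to -97. A match is a description of letters and does not show that the factor binds there.

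**Figure D1:**
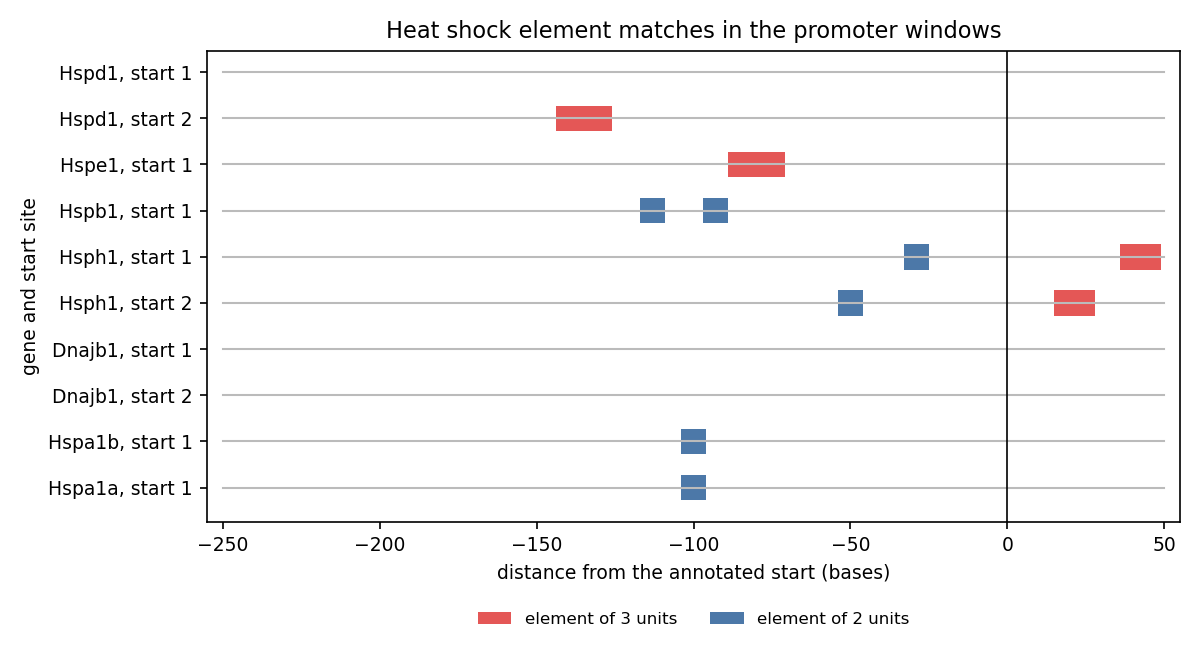
Matches to the heat shock element in the promoter windows of 7 chaperone genes, with distance from the annotated start in bases on the x axis and 1 line for each of the 10 annotated starts. Red bars are elements of 3 units and blue bars elements of 2 units outside them. Hspa1a and Hspa1b have their match at the same place, and Dnajb1 has none.

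In wild type the constitutive Hsp90ab1 and Hspa8 stood far above the stress-induced Hspa1a and Hspa1b. Levels between genes are compared as normalised counts per kb of exon. Hsp90ab1 led, from 51049 to 60756 per kb over the 4 libraries, above 99.9% of the features with a gene symbol. Hspa8 followed at 12311 to 17970, and Hsp90aa1, the Hsp90 gene that stress induces more strongly, at 6978 to 7762. The per-kb level of Hsp90ab1 was 7.26 to 8.08 times that of Hsp90aa1 in the 4 libraries. The mitochondrial pair came next, with Hspd1 at 5404 to 6231 per kb and Hspe1 at 3220 to 3712.

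Dnajb1 ranged more widely, from 1587 to 3235 per kb, so its range touches that of Hspe1, although Hspe1 was higher within each library. Hsph1 was at 994 to 1004. A wide gap separated these 7 genes from the other 3. Hspb1 was at 12.7 to 17.7 per kb, Hspa1b at 5.96 to 15.7 and Hspa1a at 0 to 6.82, and the ranges of neighbours in this last order overlap. The 10 genes together held 0.465%, 0.457%, 0.530% and 0.530% of the counts of libraries 1 to 4. The widest of the 4 exact binomial 95% intervals ran from 0.463% to 0.467%, and such intervals cover counting error only. Hsp90ab1 alone supplied 64.2% of those reads and Hspa8 14.6%.

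**Figure D2:**
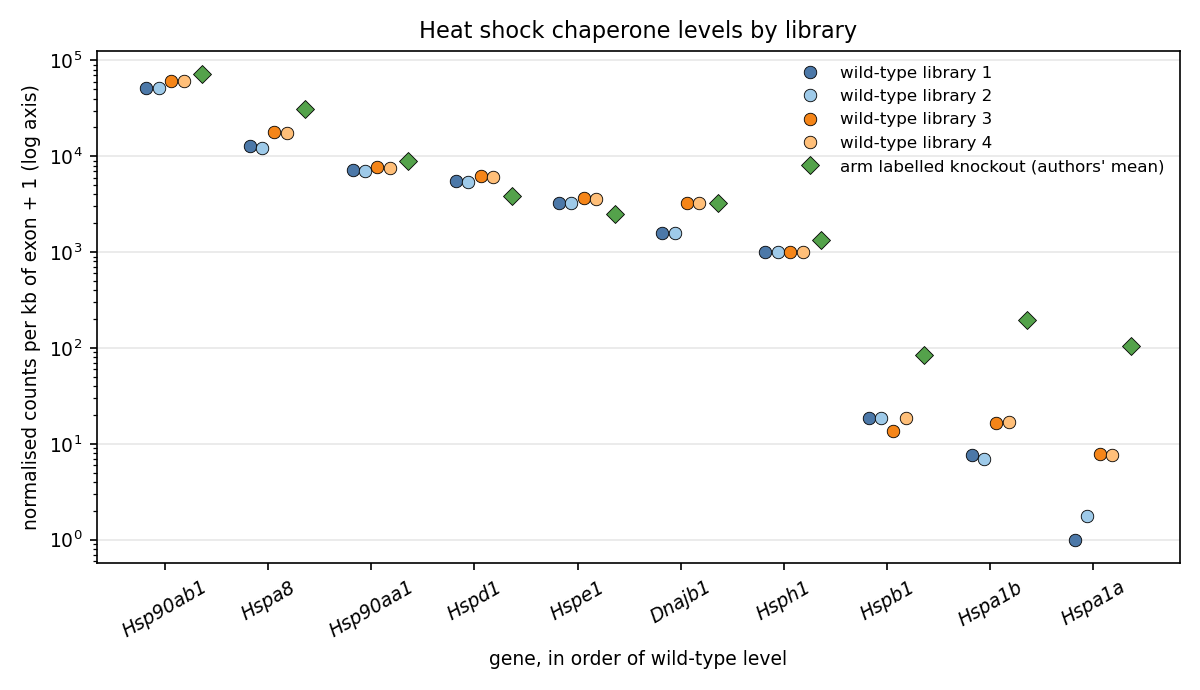
Normalised counts per kb of exon plus 1, on a log axis, for the 10 chaperone genes in order of wild-type level. Circles are the 4 wild-type libraries and diamonds the authors' mean of the arm labelled knockout, which has no spread of its own here. Hspa1a, Hspa1b and Hspb1 sit below 18 in every wild-type library before the 1 is added, and their diamonds lie above all 4 circles.

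The inducible Hsp70 genes were nearly silent in wild type and rose in the arm labelled knockout. Hspa1a (chromosome 17, 35106304 to 35109101, mm9, minus strand) had 0, 2, 20 and 20 reads in libraries 1 to 4. After division by size factors, these are 0, 2.09, 19.1 and 18.8 normalised counts. Libraries 3 and 4 lie above libraries 1 and 2 with no overlap, in the exact Poisson 95% intervals as well, which reach 7.22 reads in library 2 and start at 12.2 in libraries 3 and 4. The ratio of the pairs was 18.1, with a counting interval of 4.68 to 154, and it rests on the 2 reads of library 2: its log2 value of 4.18 became 3.18 without library 1.

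The mean of the arm labelled knockout was 292 normalised counts for Hspa1a, above every wild-type library. In the authors' deposited table this is a 25.6-fold rise (log2 4.68, adjusted p 0.000135). The library-by-library values behind that mean were not analysed here. Because libraries 1 and 2 hold 2 reads between them, the knockout mean exceeded them 279-fold, counting interval 76.7 to 2299 with 4 knockout libraries taken from the column headers, and it exceeded libraries 3 and 4 by 15.4-fold, with an interval of 11.2 to 21.7. The size of the rise thus differs 18.1-fold with the wild-type pair used as the base, while its direction was the same against both.

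Hspa1b (chromosome 17, 35093374 to 35096183, minus strand) lies 10120 bases from Hspa1a. It had 18, 16, 46 and 47 reads, or 18.9, 16.7, 43.9 and 44.1 normalised counts. Libraries 3 and 4 were again higher, by 2.47-fold, with a counting interval of 1.65 to 3.77. The knockout mean was 549, and the authors' deposited table gives a 17.1-fold rise (log2 4.10, adjusted p 0.000681). It was 30.8-fold above libraries 1 and 2 and 12.5-fold above libraries 3 and 4.

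These neighbours cannot be counted fully apart. Of all stretches of 50 bases in the longest GENCODE transcript of Hspa1a, 58.8% also occur in an Hspa1b transcript, and 62.3% of those of Hspa1b occur in Hspa1a. The sources used here do not say how reads that fit both genes were treated. Summed, the 2 genes had 18, 18, 66 and 67 reads in the 4 libraries, and the knockout mean was 840 normalised counts, 44.5-fold over libraries 1 and 2 and 13.4-fold over libraries 3 and 4. The sum went in the same direction as either gene, 3.33-fold higher in libraries 3 and 4, with ratios nearer those of Hspa1b. It does not depend on how shared reads were split between the 2 genes, but it would on any that were dropped.

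Hspa1a and Hspa1b were the only members called higher, 2 of 10, where the authors' deposited table calls 3.15% of all tested features higher. No member was called lower, and 3.7% of all tested features were. At an adjusted p under 0.1 the same 2 were higher, with 4.25% of all tested features. The other 8 members did not pass the adjusted p of 0.05 in that table, in which the smallest called rise over all features was 5.69-fold. Bulk RNA cannot tell more transcripts per cell from more cells that hold them.

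**Figure D3:**
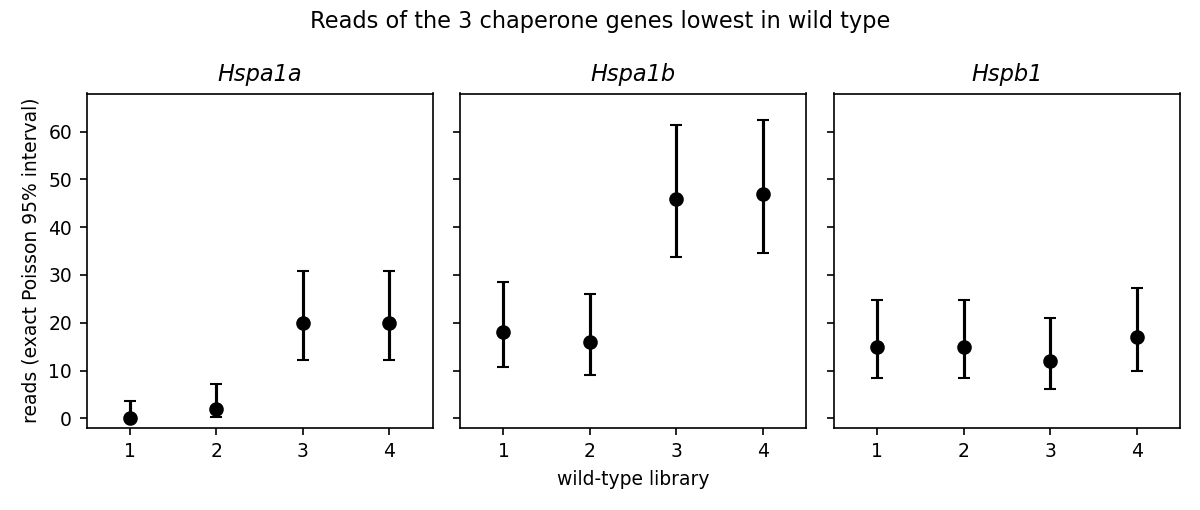
Reads of Hspa1a, Hspa1b and Hspb1 in each wild-type library, with exact Poisson 95% intervals that cover counting error only. Hspa1a goes from 0 and 2 reads in libraries 1 and 2 to 20 in each of libraries 3 and 4, whereas the intervals of Hspb1 overlap in all 4 libraries.

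Hspb1 (chromosome 5, 136363789 to 136365433) encodes a small heat shock protein that binds unfolding proteins without using ATP. It had 15, 15, 12 and 17 reads in the 4 libraries and so did not share the split between the pairs. Its knockout mean was 74.5 normalised counts, 4.73-fold above libraries 1 and 2 and 5.43-fold above libraries 3 and 4. The authors' deposited table gives a log2 fold change of 2.25 with an adjusted p of 0.107, which misses the threshold. A processed copy of the gene, Hsp25-ps1, shares 51.6% of its stretches of 50 bases.

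Among the constitutive cytosolic genes, Hspa8 (chromosome 9, 40609356 to 40613282) varied most in the arm comparison. Its normalised counts were 27065, 25791, 37648 and 36350 in libraries 1 to 4, and libraries 3 and 4 were 1.40-fold higher. The knockout mean of 65908 lay 2.49-fold above libraries 1 and 2 and 1.78-fold above libraries 3 and 4. The authors' deposited log2 fold change was 1.05, with an adjusted p of 0.612. Pseudogenes such as Gm15459 share 51.4% of its stretches of 50 bases. Per kb, Hspa8 stood 1104 to 2065 times above Hspa1b in the wild-type libraries and 161 times above it in the knockout mean.

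The cochaperones that serve Hsp70 behaved unlike each other. Dnajb1 (chromosome 8, 86132074 to 86135802) had 3589, 3599, 7314 and 7273 normalised counts, so libraries 3 and 4 were 2.03-fold higher, with a counting interval of 1.97 to 2.09. The knockout mean of 7418 lay at the level of libraries 3 and 4, at a ratio of 1.02 with a counting interval of 0.996 to 1.04, and 2.06-fold above libraries 1 and 2. The authors' deposited log2 fold change of 0.45 (adjusted p 0.910) is taken against the mean of all 4 libraries and does not show this. The ratio of 1.02 rests on the scaling of the knockout mean and was not computed on library totals. Its interval covers counting error only. Hsph1 (chromosome 5, 150419420 to 150438890) varied least of the 10 over the wild-type libraries, at 3440, 3460, 3473 and 3442, and had a knockout mean of 4660 and a deposited log2 fold change of 0.43 (adjusted p 0.915).

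The Hsp90 genes were close to level. Hsp90ab1 (chromosome 17, 45704727 to 45710210) had 129425, 127418, 151648 and 150344 normalised counts and a knockout mean of 179870, a deposited log2 fold change of 0.36 (adjusted p 0.934). Hsp90aa1 (chromosome 12, 111929246 to 111934605) had 20265, 19810, 22036 and 21166 and a knockout mean of 25066, a deposited log2 fold change of 0.27 (adjusted p 0.961). Libraries 3 and 4 were 1.18-fold and 1.08-fold higher for the 2 genes. The per-kb ratio of Hsp90ab1 to Hsp90aa1 was 8.16 in the knockout mean, just above its wild-type range. Other GENCODE genes, Gm12346 first among them, share 58.5% of the 50-base stretches of Hsp90aa1, and 4.49% of those of Hsp90ab1 are shared, so the first count is the less certain.

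Hspd1 (chromosome 1, 55134678 to 55144776) and Hspe1 (chromosome 1, 55144992 to 55148161) form the chamber in which mitochondrial proteins fold. They were the only members with a negative deposited log2 fold change. Hspd1 had 12905, 12538, 14456 and 14166 normalised counts and a knockout mean of 9022, with a deposited value of -0.58 (adjusted p 0.860). Hspe1 had 2460, 2512, 2836 and 2754 and a knockout mean of 1900, with a deposited value of -0.47 (adjusted p 0.901). Both knockout means lay below all 4 wild-type libraries. The per-kb ratio of Hspe1 to Hspd1 moved little, from 0.579 to 0.608 in the wild-type libraries and to 0.640 in the knockout mean, the last above all 4 libraries. Of the 50-base stretches of Hspd1, 44.8% occur in other genes, mostly its pseudogene Hspd1-ps3.

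For 8 of the 10 members the mean of the arm labelled knockout was higher than either wild-type pair, and for 2 it was lower than either, where 38.2% and 43.3% of all tested features do so. These positions say nothing of the spread between the knockout libraries, which was not examined. They rest on the scaling of the knockout mean and were not computed on library totals. As a share of counts, the 10 members held 0.533% in the knockout mean, near the 0.530% of libraries 3 and 4. Dnajb1 is among the 8 at 1.02 times libraries 3 and 4, with a counting interval of 0.996 to 1.04. The median deposited log2 fold change of the 10 members was 0.44, and over all tested features it was -0.10.

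**Figure D4:**
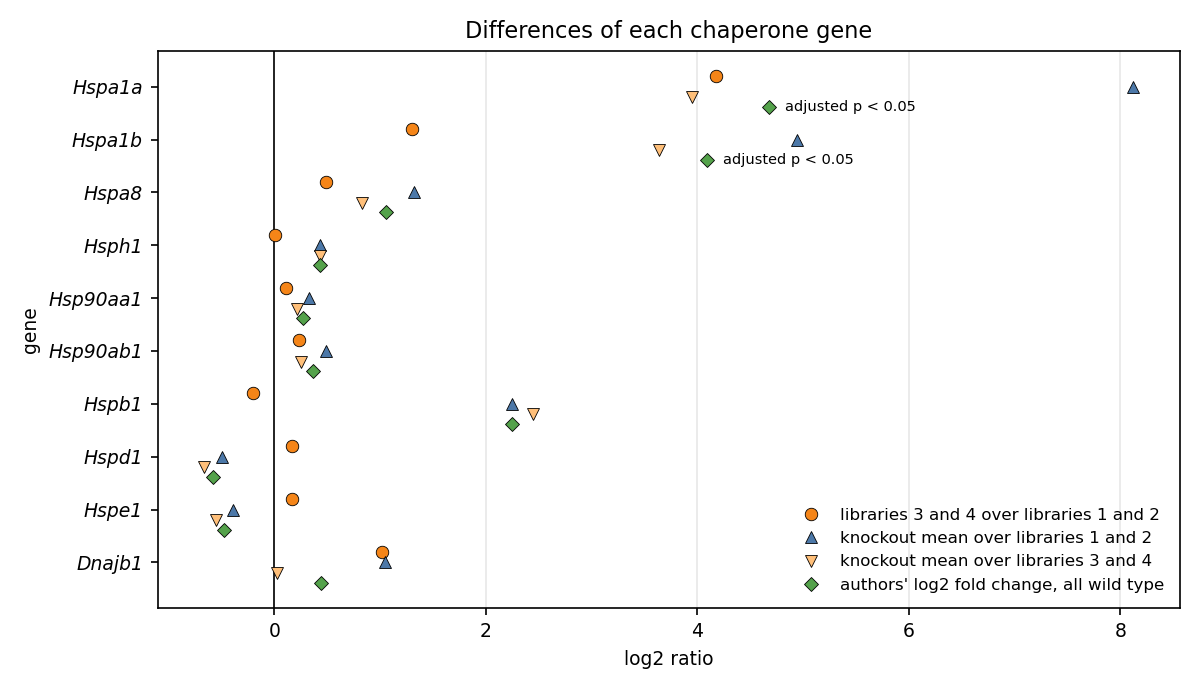
Log2 ratios for each chaperone gene, with circles for libraries 3 and 4 over libraries 1 and 2, triangles for the knockout mean over each wild-type pair and diamonds for the authors' deposited log2 fold change. Hspa1a and Hspa1b stand apart at 4.68 and 4.10, the knockout ratio of Dnajb1 is near 0 against libraries 3 and 4 and above 1 against libraries 1 and 2, and the knockout ratios of Hspd1 and Hspe1 lie left of 0.

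Between the wild-type pairs, 3 members were at least 2-fold higher in libraries 3 and 4, Hspa1a at 18.1-fold, Hspa1b at 2.47-fold and Dnajb1 at 2.03-fold. Of the 7 members that reach a mean of 100 normalised counts, 1 did so, Dnajb1, where 1.6% of the 13089 features at that level did. Of the 9 members with a mean of at least 10, 2 did so, against 3.23% of features at that level. Past 1.5-fold it was again 1 of 7, against 6.4%, and 2 of the 9 members with a mean of at least 10, against 9.21%. No member was at least 2-fold lower, and 4.52% of those features were. Dnajb1 stands at the edge of this rule: scaled to library totals instead, its ratio is 1.94.

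Other quantities move with the same split. Of 20 immediate early genes, which signals and stress switch on within minutes, 18 were at least 2-fold higher in libraries 3 and 4. The median log2 difference of the 20 was 4.37, and none was at least 2-fold lower. Of all features with a mean of at least 10 normalised counts, 3.23% were as much higher and 9.71% as much lower. The marker counts below use no minimum mean. Egr3 went from 5.24 to 525 normalised counts, Klf2 from 51.4 to 4082 and Atf3 from 8.92 to 557. All 10 neutrophil markers were at least 2-fold lower there, and the list held 0.119% to 0.12% of the counts in libraries 1 and 2, 0.0230% to 0.0233% in libraries 3 and 4 and 0.0567% in the knockout mean, with none of the 10 at 0 reads. Of 8 T cell markers 6 were at least 2-fold higher in libraries 3 and 4 and 1 lower, and of 8 mast cell and basophil markers 3 were higher, with Cma1 and Tpsb2 at 0 reads in wild type. Of 8 B cell markers 4 were as much lower, of 10 macrophage and monocyte markers 4 were lower and 2 higher, and of 10 stroma and endothelium markers 2 were higher. None of the 12 stem cell or 12 erythroid markers differed 2-fold.

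The marker lists also differed in the knockout mean, where Hspa1a and Hspa1b rose. The values below are shares of total counts, whereas the levels of the members are normalised counts. The lists were not put on the scale of the members, and a list's direction may differ between the scales. Stem cell markers held 0.439% to 0.503% of the counts in the wild-type libraries and 0.370% in the knockout mean, and erythroid markers 0.105% to 0.132% and 0.0370%. T cell markers held 0.00122% to 0.00137% and 0.00262%, and Cd3e was at 0 in the knockout mean. B cell markers held 0.00248% to 0.00301% and 0.00067%, with Ms4a1 and Pax5 at 0 in the knockout mean. Mast cell and basophil markers held 0.00258% to 0.00388% and 0.00145%, macrophage and monocyte markers 0.0277% to 0.0298% and 0.0258%, and stroma and endothelium markers 0.0155% to 0.0215% and 0.00963%. The part of these differences in those of Hspa1a, Hspa1b and Dnajb1 was not tested.

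Among the immediate early genes 4 were called higher by the authors' deposited table, Egr3, Klf4, Nr4a1 and Ier5, and 3 lower, Fos, Klf2 and Myc. Of these Nr4a1, Fos and Myc were named after their values were seen. Of all features with a mean of at least 10 normalised counts, that table called 2.41% higher and 4.56% lower. Klf2 fell 17.4-fold in that table (adjusted p 0.00056), to a knockout mean of 117 normalised counts, between the wild-type pairs, whereas the knockout means of Hspa1a and Hspa1b were above both pairs. Fos lay between its pairs too, at 854 and 49960 with a knockout mean of 4173. Myc lay below both of its pairs, with a knockout mean of 1440.

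The genes nearest to the inducible Hsp70 genes in pattern were searched among 10750 features with a symbol and a wild-type mean of at least 100, as the distance between centred log2 profiles over 5 values, the 4 libraries and the knockout mean. Hspa1b was closest to S1pr1, a sphingosine phosphate receptor, at a distance of 0.286, then Epha2, Fosl2, Neo1 and Efna1, the last at 0.484. S1pr1 had 1323, 1249, 3062 and 2978 normalised counts and a knockout mean of 30073. Hspa1a had no such close match: Klf4 came first at 1.66, followed by Cdkn1a, Dusp5, Fn1 and Trpc1. Each value had 1 added before the log, so the 0 and 2.09 normalised counts of Hspa1a in libraries 1 and 2 add to its distances. The lack of a close match may therefore reflect its low reads. Klf4, an immediate early factor, had 25.2, 35.6, 590 and 614 normalised counts and a knockout mean of 2634. The minimum is a mean over the 4 libraries, so Klf4 passed it only through libraries 3 and 4. Genes as low as Hspa1a and Hspa1b, at means of 9.99 and 30.9, could not be picked. The values share libraries, and likeness over 5 values is a description only.

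Among 124 other genes of protein folding and the heat shock response, 121 were found by name and 115 had a wild-type mean of at least 10 normalised counts. Of the 115, 4 were called higher in the authors' deposited table and 0 lower, where 2.41% and 4.56% of all features at that level were. The 4 were Hspa2, Dnajb6, Cryab and Ier5, and at an adjusted p under 0.1 the counts were 8 and 0. With no minimum mean, 10 of the 117 tested were higher at that looser threshold, where 4.25% of all tested features were. The share of all features lower at that threshold was not computed. The median deposited log2 fold change of the 115 was 0.08, and that of all features at that level was -0.11. Between the wild-type pairs 5 were at least 2-fold higher in libraries 3 and 4 and 3 as much lower, where 3.23% and 9.71% of all features were. The lists were written from textbook roles with earlier results of these data known.

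Of 8 further Hsp70 and Hsp110 genes, all measured, 1 was called. Hspa2, an Hsp70 best known from the male germ line, had 516, 520, 621 and 690 normalised counts and a knockout mean of 5509.8, in the authors' deposited table a 9.36-fold rise (adjusted p 0.00799). Its wild-type pairs differed 1.26-fold, far less than the rise. Hspa1l, the testis Hsp70 that lies 546 bases from Hspa1a on the other strand, went the other way between the pairs, at 273, 286, 96.3 and 71.4, with a knockout mean of 85.7 and no call (adjusted p 0.612). Hspa12a, a distant Hsp70 relative, was 1.97-fold higher in libraries 3 and 4 at a low level, 17.8 against 35.1, and was not called.

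Small heat shock proteins other than Hspb1 gave 5 measured genes of 9. Cryab, alpha B crystallin, had 13.7, 25.1, 36.2 and 46 normalised counts and rose 9.88-fold to 313 in the authors' deposited table (adjusted p 0.00703). Hspb8, a partner of the cochaperone Bag3, and Hspb11 were 2.08-fold and 2.05-fold higher in libraries 3 and 4 and were not called. Below the minimum, and named after their values were seen, Hspb2 and Hspb7 were also called higher. Hspb2 lies 403 bases from Cryab in the opposite direction. Its 38 reads in wild type are a mean of 9.37 normalised counts per library, and its knockout mean was 77.1. Hspb7 had 1 read in wild type, a mean of 0.262 normalised counts, and a knockout mean of 99.9. The authors' deposited table gives Hspb2 and Hspb7 rises of 7.65-fold (adjusted p 0.0263) and 72.0-fold (adjusted p 1.03e-05). With 1 wild-type read the size of the latter is loosely bounded, the counting interval of the scaled ratio running from 71.5 to 15906.

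Of 32 J-domain cochaperones, Dnajb6, which holds aggregating proteins in check, was the 1 called, with a 6.05-fold rise to 7003 normalised counts from 1065, 1021, 1280 and 1260 (adjusted p 0.0402 in the authors' deposited table). Dnajb9, a cochaperone of the endoplasmic reticulum, was 2.49-fold higher in libraries 3 and 4, at 1370 and 3418 normalised counts. Dnajb4 was 1.57-fold higher and Dnajc30, a mitochondrial J protein, 1.33-fold higher. None of these 3 was called. None of the 27 exchange factors and cochaperones of Hsp70 and Hsp90 was called, with a median deposited log2 fold change of 0.08. The largest differences between the pairs in that group were those of Cdc37l1, Ahsa2 and Sugt1, at log2 values of -0.84, -0.49 and 0.49.

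None of the 17 chaperones of the endoplasmic reticulum and mitochondria was called, 6 having a positive and 11 a negative deposited log2 fold change. Hspa5, the Hsp70 of the endoplasmic reticulum, had the largest difference between the pairs, at 16542 and 21773 normalised counts, and a knockout mean of 48833 (adjusted p 0.440 in the authors' deposited table). Grpel2, an exchange factor of mitochondrial Hsp70, and Clpx, an unfoldase of the matrix, followed at log2 values of -0.32 and 0.26 between the pairs. The cytosolic chaperonin TRiC and prefoldin, which fold actin and tubulin, gave 14 measured genes with no call and a median of -0.17, and their median log2 difference between the pairs was 0.30. Cct6b, a testis form of a TRiC subunit, differed most, at -1.19 on 42.0 against 18.5 normalised counts, and Pfdn5 and Cct4 were at 0.68 and 0.54.

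Of the factors that govern the response, Hsf1, the master factor, had 2527, 2465, 1956 and 2011 normalised counts and a knockout mean of 3899, with a deposited log2 fold change of 0.80 (adjusted p 0.752). All 5 measured genes of this list had a positive deposited value and none was called, with a median of 1.19 where all features at that level gave -0.11. Between the pairs Hsf2bp, which binds Hsf2, had a log2 difference of -1.78 and Hsbp1, a negative regulator of Hsf1, one of 0.26. Of 20 other textbook targets of heat shock factor 1, 15 had a positive and 5 a negative deposited value, with a median of 1.04, and 3 were called higher, Hspa2, Cryab and Ier5, which other lists here also hold. Ier5 rose 6.19-fold (adjusted p 0.037 in the authors' deposited table), from 1064 in libraries 1 and 2 and 2449 in libraries 3 and 4.

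**Figure D5:**
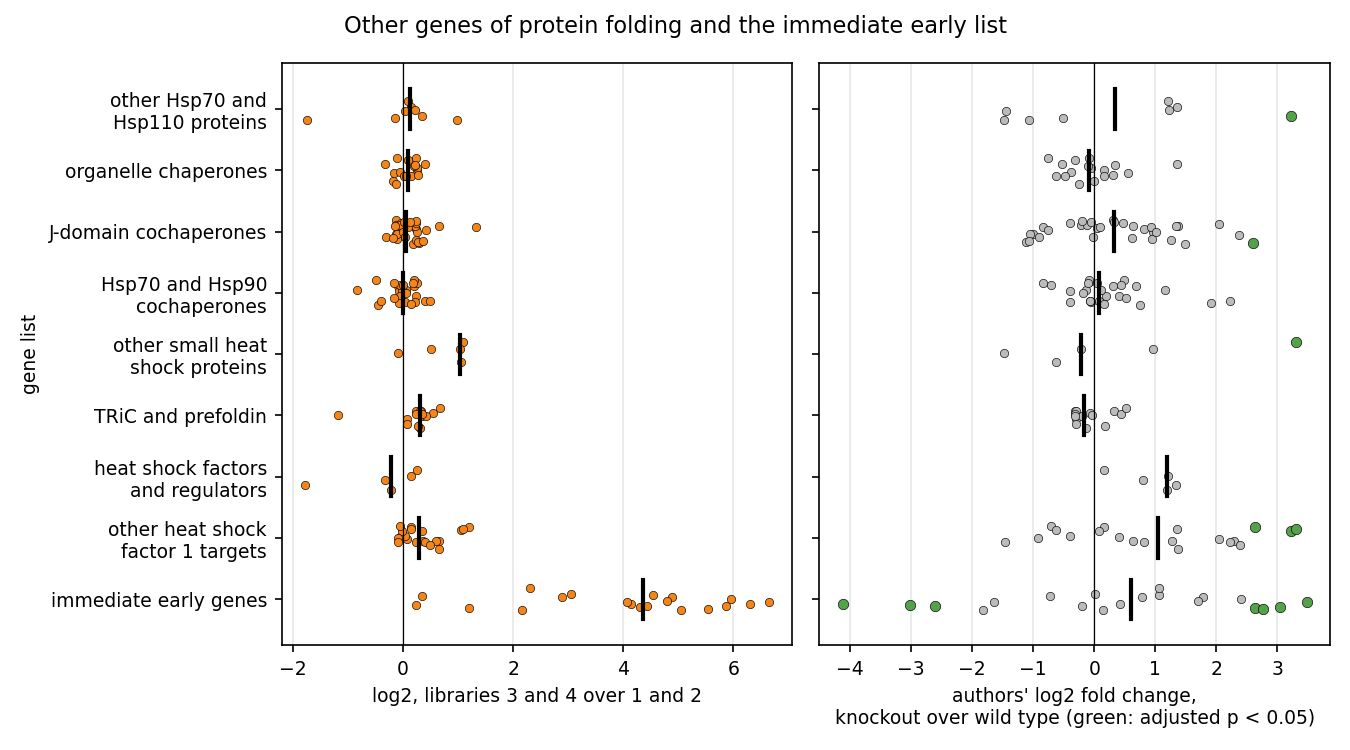
Each point is a gene with a wild-type mean of at least 10 normalised counts, with the log2 difference between the wild-type pairs on the left and the authors' deposited log2 fold change on the right. Black bars are list medians and green points are genes called at an adjusted p under 0.05. Of 115 folding genes 5 lie past 2-fold to the right in the left panel and 3 past it to the left, while the immediate early list has its median at 4.37.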

How the data were processed

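Per the labels, RNA was polyA-selected and made into libraries with a TruSeq kit, which as named does not mark strand. Read counts per feature were deposited by the authors for each wild-type library. A signal under an FPKM heading was deposited too: each value is the count over exon length in kb, divided by 50, and was used only for exon lengths. The knockout mean count, a log2 fold change and a p-value read as adjusted were also deposited by the authors. Per the submitters' processing notes, the build was mm9 and DESeq was among the tools. Aligner, counter and annotation: not given in the sources used here. Of 30 columns, 8 with values of single libraries matched no sample and were left out.

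Size factors by the median of ratios scaled the counts (Python 3.11.15, numpy 2.4.6, pandas 2.3.3, scipy 1.17.1). The knockout mean was put on that scale by adding 0.399 on the log2 scale, the median offset from the deposited fold changes over 11936 features (SD 0.003). TMM factors came from edgeR 4.0.16 as an alternative. No test between arms was run. Intervals of ratios are exact 95% conditional binomial intervals and cover counting error only. For the knockout arm the reads were taken as the deposited mean times 4, the number of knockout libraries in the column headers. At these depths 0 reads allow up to 0.0737 CPM, with 3 counts as the floor. The steps were tested on simulated data. No other feature overlaps a member. Genes named from each list were the 3 with the largest log2 difference between pairs and up to 3 called with the largest log2 fold change, at a mean of at least 10, and others are said to be chosen after their values were seen. The members and lists were chosen with earlier results of these data known. List genes with no match were Pfdn6, Hikeshi and Cct1.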

Additional observations from a re-analysis of the deposited data

Results flagged for a closer look

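In library 3 the normalised count of Hspb1 was 11.4, with the other 3 libraries between 15.7 and 16.0, a gap of 0.942 of the whole range, past Dixon's critical value for a group of 4. The gap comes from 12 reads against 15, 15 and 17, and the exact Poisson 95% interval of 12 reads runs from 6.20 to 21.0. Chance marks about 1 in 20 such groups, and 10 genes were looked at.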

How the results depend on the processing

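No paired analysis was possible because the only labelled samples form 1 group. Of 181 alternative values for single members, 169 moved by less than the spread between libraries and 12 by more, and none of the called values changed sign. The count of 3 members at least 2-fold higher in libraries 3 and 4 was 3 with TMM factors, 3 past 1.5-fold and 3 without library 1, 3 or 4. Without library 2 it was 3 only if Hspa1a, with 0 reads left in the lower pair and so no ratio, is counted. It was 2 with library totals, where Dnajb1 dropped out. The median log2 difference of the members between the pairs, 0.20, was 0.13 with library totals, and 0.19 to 0.22 leaving out 1 library. The median deposited log2 fold change of the members was 0.44. Computed from the scaled knockout mean, the median log2 ratio was also 0.44 over all 4 libraries (chosen after seeing the data), 0.77 against libraries 1 and 2, 0.34 against libraries 3 and 4, and 0.38 to 0.53 leaving out 1 library. Knockout ratios were not computed on library totals. The call counts of 2 higher and 0 lower were the same at an adjusted p under 0.1. Among other chaperone genes, 10 in place of 5 were higher in libraries 3 and 4 past 1.5-fold, and 1 in place of 3 was at least 2-fold lower with a minimum mean of 100. Those called higher numbered 6 with no minimum and 3 with a minimum of 100. Summing Hspa1a and Hspa1b, an alternative chosen after seeing the data, gave a log2 difference of 1.74 between the pairs, where Hspa1b alone gave 1.30. Scaled to library totals, the difference of Hsph1 was -0.07 in place of 0.00. Labels and design text differ on replication, and depth limits Hspa1a, Hspa1b and Hspb1.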
